A study of Mus musculus with 30 samples.

Results

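The 51 genes described here code for subunits of the mouse mitochondrial respiratory chain. They are nuclear genes, chosen by name with earlier results of these data known. Of them, 25 belong to complex I, 4 to complex II, 8 to complex III together with cytochrome c, 8 to complex IV and 6 to complex V. A gene was taken from the array where the platform gave its symbol to a probe set and to no other gene, which found 50 of them. Atp5f1 was found under its current symbol, Atp5pb, through the RefSeq gene table. All 51 were therefore measured, on 62 of the 34760 probe sets and among 19937 genes with such a probe set.

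The respiratory chain sits in the inner mitochondrial membrane. Complex I takes electrons from NADH and complex II takes them from succinate, and ubiquinone, complex III and cytochrome c pass them on to complex IV, which reduces oxygen. Complexes I, III and IV pump protons, and complex V, the ATP synthase, uses the resulting gradient to make ATP. Resting B cells are small and metabolically quiet, and mitochondrial mass and respiration are known to increase when they are activated, divide in germinal centres and secrete antibody.

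The mice were CeGFP animals on the BALB/c background, with an IRES-GFP knock-in in the 3'UTR of the epsilon heavy chain constant region (Cepsilon), and all of them were infected with the worm Nippostrongylus brasiliensis. Mesenteric lymph nodes were taken on day 10, and each sample was an independent sort from a pool of 3 mice. GFP therefore marks IgE cells, and also IgG1 cells whose non-productive heavy chain allele carries the epsilon rearrangement. In the first experiment, with 18 arrays, the gate for germinal centre (GC) cells was B220+ CD95+ CD138-, and that for plasma cells (PC) was CD95+ CD138+. Its groups were GFP-negative IgG1 GC (n = 3), GFP-positive IgG1 GC (n = 3), IgE GC (n = 3), IgG1 PC (n = 2), IgE PC (n = 4) and naive B cells (n = 3). All IgE cells and the IgG1 PC were GFP-positive. The naive cells were B220+ CD95- CD138- without IgG1 or IgE and came from the same infected animals, so they are not cells of uninfected mice. The second experiment, with 12 arrays, divided IgG1 GC cells into a dark zone (DZ) gate, CXCR4 high and CD86 low, and a light zone (LZ) gate, CXCR4 low and CD86 high, each from GFP-positive and from GFP-negative cells (n = 3 for each of the 4 groups). These zones are gates on surface markers and not regions of a tissue section.

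All levels are log2 signals as deposited, so that a difference of 1 is a doubling, and a level says nothing about another gene's level because probes differ. Array medians lay between 5.28 and 5.47. A gene entered the tests if it lay above the array median on at least 2 arrays (first experiment) or 3 arrays (second experiment), which left 12098 and 11050 genes. All 51 members passed in both, and 49 of them lay above the median on every array, Ndufb3 and Ndufb6 being below it on naive replicate 1. Differences were fitted with limma and are given with the SE of the fit, with calls made at an adjusted p under 0.05 over all genes tested. By group mean, the plasma cell marker Sdc1 and the GC marker Mybl1 followed the labels. Within the first experiment, Sdc1, which codes for the sort marker CD138, averaged 8.25 and 8.80 in the IgG1 and IgE PC against 4.57 to 4.88 in the other groups, and Mybl1 averaged 10.96 to 11.14 in the GC groups against 4.58 in naive cells. On all arrays of both experiments, 4 of 4 measured pan-B markers lay above the array median. Naive replicate 1 and GFP-positive IgG1 GC replicate 3 stood apart, each correlating less with the other arrays of its group (0.936 and 0.975) than those did (0.949 in both for naive, 0.982 in both for GFP-positive IgG1 GC). In bulk RNA of this kind, fewer cells of a type and less RNA per cell cannot be told apart.

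Short promoter stretches are shown because factors that bind these motifs are known regulators of respiratory chain genes. RefSeq promoter entries (GRCm38.p6, 250 bases before to 50 after the gene start) matched 40 of the 51 members, and 7 motifs were searched on both strands. The site of NRF1 (GCGCA, any base, GCGC) occurred in 9 of the 40 against 5.19% of 27025 promoters. CCGGAAG, the ETS core bound by GABP, occurred in 8 against 9.93%, and AAGATGGC, the YY1 site, in 7 against 3.19%. At least 1 of these 3 motifs, which do not overlap in the windows printed, was present in 22 of 40 (55%) against 16.4% of all promoters. CCAAT was found in 15 (41.1% of all promoters), GGGCGG in 17 (38.2%), CACGTG in 2 (8.09%) and TATAAA in 1, Ndufs7 (15.7%). The windows below come from the promoters of genes that were higher in the dark zone. Of the 9 such members with a promoter entry, 5 (55.6%) had at least 1 of the 3 motifs. That share is like the 55% of all members, which include these 9. So few genes cannot show whether the motifs set them apart. Each is read 5′ to 3′ on the gene's strand, with the motif in capitals (the reverse complement where the motif lies on the other strand). A match describes the letters only and is no evidence of binding.
Sdhb, ETS core, chr4:140961266-140961295, plus strand: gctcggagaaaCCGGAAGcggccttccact
Ndufb6, ETS core, chr4:40279635-40279664, minus strand: tcgtccttgttCTTCCGGtcccctccccta
Sdhd, ETS core, chr9:50603877-50603906, minus strand: ccgtctcctgcCTTCCGGttcacgcttcag
Sdhd, NRF1 site, chr9:50603909-50603938, minus strand: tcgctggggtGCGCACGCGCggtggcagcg
Ndufa8, NRF1 site, chr2:36049349-36049378, minus strand: ctagagcagtGCGCTTGCGCgtcgctggag
Atp5f1, YY1 site, chr3:105959248-105959277, minus strand: atgtgcgagcgGCCATCTTgctcctgcccc

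The first comparison asks how the chain's transcripts differ between naive B cells and cells that entered the germinal centre or became plasma cells. Respiratory chain transcripts were higher than in naive cells in all 5 sorted populations, and 0 were called lower in any of them. In IgE GC cells 39 of 51 rose, against 19.3% of all genes tested (7.4% fell), with a median difference of 0.98 (all genes 0.06). In GFP-positive IgG1 GC cells 36 rose (16.8% of all genes, and 6.43% fell), median 0.83 (all genes 0.02), and in GFP-negative IgG1 GC cells 38 rose (20.5%, and 9.35% fell), median 0.85 (all genes 0.07). In IgE PC 45 rose (23% of all genes, and 14.1% fell), median 1.05 (all genes -0.01), and in IgG1 PC 39 rose (17.1%, and 12.2% fell), median 1.00 (all genes 0.01). These 5 comparisons share the 3 naive arrays, so they are not separate observations. The mean level of the 51 genes was 8.61 ± 0.12 (SD, n = 3) in naive cells, and lay between 9.44 ± 0.25 (GFP-positive IgG1 GC, n = 3) and 9.71 ± 0.13 (IgG1 PC, n = 2) in the other 5 groups. Every one of the 15 GC and PC arrays lay above every naive array for 30 of the 51 genes, which held for 8.73% of all genes tested, and below every naive array for 0 (3.74% of all genes). Without the 2 arrays that stood apart, 41, 34, 38, 46 and 43 members were higher than naive in IgE GC, GFP-positive IgG1 GC, GFP-negative IgG1 GC, IgE PC and IgG1 PC, and 0 were lower.

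**Figure D1:**
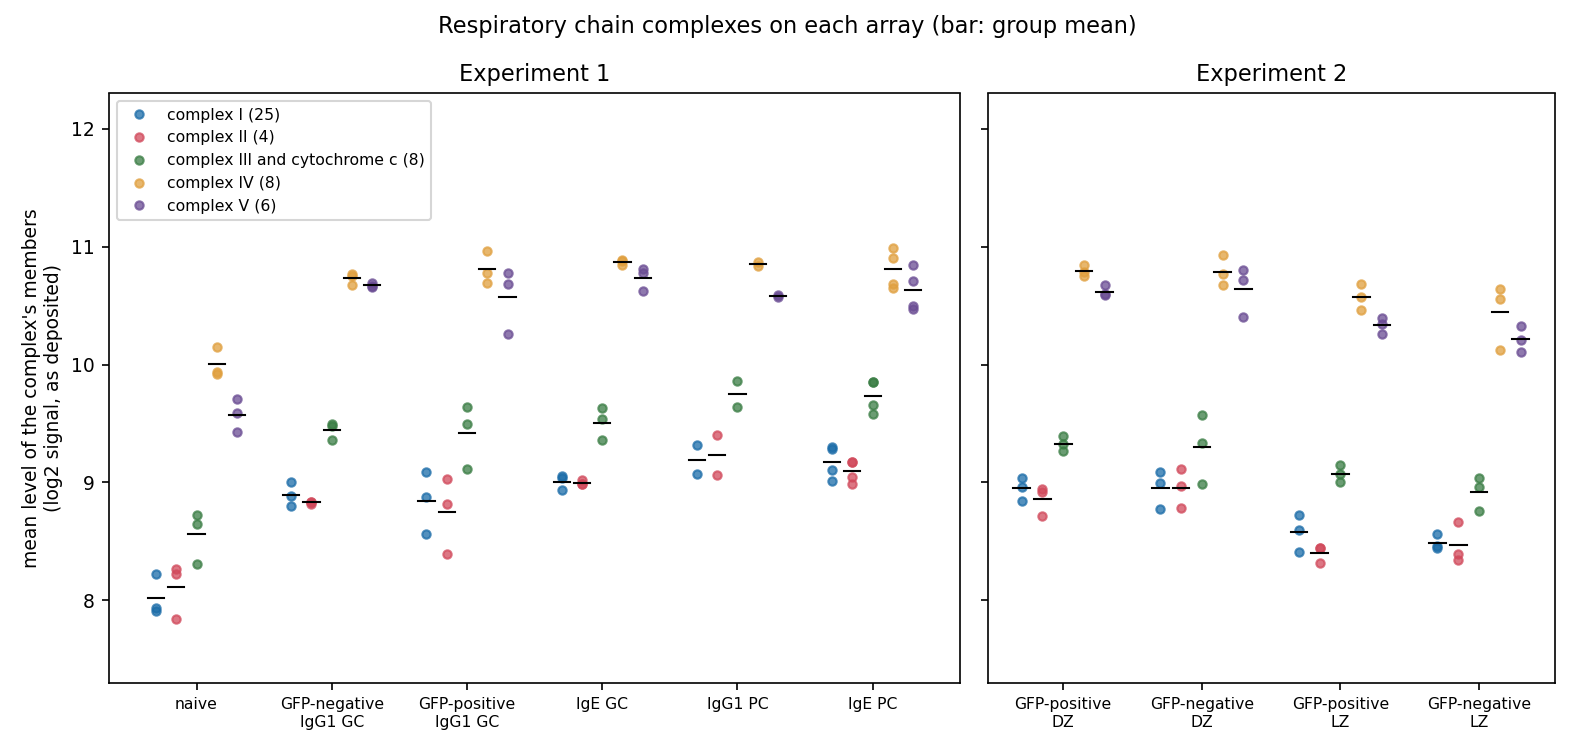
Mean level of the members of each complex (y axis, log2 signal as deposited) on each array, by sample group (x axis), with experiment 1 on the left and experiment 2 on the right. Points are arrays, bars are group means, and heights of different complexes cannot be compared. In experiment 1 the naive arrays are lowest for each complex, and in experiment 2 each LZ group mean lies below both DZ group means.

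Bright genes as a class differed between naive and other arrays, which bears on these counts because all members are bright. Among 1109 tested genes whose mean level lay within the members' interquartile range, 43.6% were higher in IgE GC (median 0.56), 37.7% in GFP-positive IgG1 GC (0.47), 45.2% in GFP-negative IgG1 GC (0.56), 42.8% in IgE PC (0.40) and 35.5% in IgG1 PC (0.30). The interquartile range of signals was 2.48, 2.97 and 2.69 on the naive arrays and 2.80 to 3.16 on the other 15, so naive replicates 1 and 3 had the narrowest spread. When all arrays were quantile-normalized again, 27, 20, 22, 32 and 28 members were called higher in IgE GC, GFP-positive IgG1 GC, GFP-negative IgG1 GC, IgE PC and IgG1 PC, with medians of 0.64, 0.52, 0.54, 0.67 and 0.76 (all genes -0.08 in the first 4 and -0.03 in IgG1 PC). The share of all calls that were higher went with that scaling from 72.3% to 49.2%, from 72.3% to 51.3%, from 68.6% to 48.0%, from 62.0% to 47.9% and from 58.3% to 49.8%. Markers of other cells moved with the naive group as well. The summed log2 signal of 8 macrophage and dendritic markers was 40.3 to 45.2 on the naive arrays and 34.6 to 39.9 on the other 15 (2 to 3 and 0 to 3 of 8 markers above the array median), and Tyrobp, the leading one, averaged 8.43 in naive cells, 5.42 to 5.79 in the GC groups and 5.49 and 6.002 in IgG1 and IgE PC. Sums for 5 neutrophil markers were 22.9 to 27.4 against 21.0 to 23.2, and for 4 stromal and endothelial markers 25.8 to 28.0 against 22.2 to 24.5. The part of these markers in the differences was not tested.

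Complex I, NADH dehydrogenase, had 17 of its 25 members higher in IgE GC (median 0.98) and 21 in IgE PC (median 1.05), with 15, 16 and 18 in GFP-positive IgG1 GC, GFP-negative IgG1 GC and IgG1 PC. Ndufs8 codes for a core subunit that carries iron-sulfur clusters. Its level was 7.96, 8.50 and 8.25 in the naive pools, 9.79, 9.86 and 9.16 in GFP-negative IgG1 GC, 9.55, 9.63 and 9.12 in GFP-positive IgG1 GC, and 9.52, 9.83 and 9.73 in IgE GC. It was 9.69 and 10.21 in IgG1 PC and 9.91, 10.20, 10.22 and 9.93 in IgE PC. The naive values overlapped with no other value, and the difference was 1.45 ± 0.22 in IgE GC (adjusted p = 1.07e-04) and 1.83 ± 0.20 in IgE PC (adjusted p = 2e-06). Ndufs4, an accessory subunit needed for a stable complex, rose by 1.34 in GFP-positive IgG1 GC (adjusted p = 2.05e-05).

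Ndufb6, a membrane-arm accessory subunit, had the largest differences of all members, and 1 naive pool sets their size. Its naive levels were 4.69, 8.19 and 7.56, with 8.68, 8.94 and 9.02 in GFP-negative IgG1 GC, 9.06, 9.26 and 8.98 in GFP-positive IgG1 GC and 9.06, 9.64 and 9.11 in IgE GC. It stood at 9.62 and 10.08 in IgG1 PC and at 9.64, 9.62, 9.85 and 9.56 in IgE PC. The differences of 2.45 ± 0.56 (IgE GC), 2.85 ± 0.52 (IgE PC) and 3.04 ± 0.63 (IgG1 PC) were 1.39, 1.79 and 1.98 without naive replicate 1, and all stayed called (adjusted p = 3.13e-04 in IgE GC). Of the remaining complex I genes, the core subunits Ndufs3 and Ndufs7 and the accessory subunit Ndufa5 were called in none of the 5 comparisons. Ndufs7 read 8.84, 7.78 and 7.82 in naive cells and 8.48, 8.80 and 8.82 in IgE GC, so its groups overlapped.

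**Figure D2:**
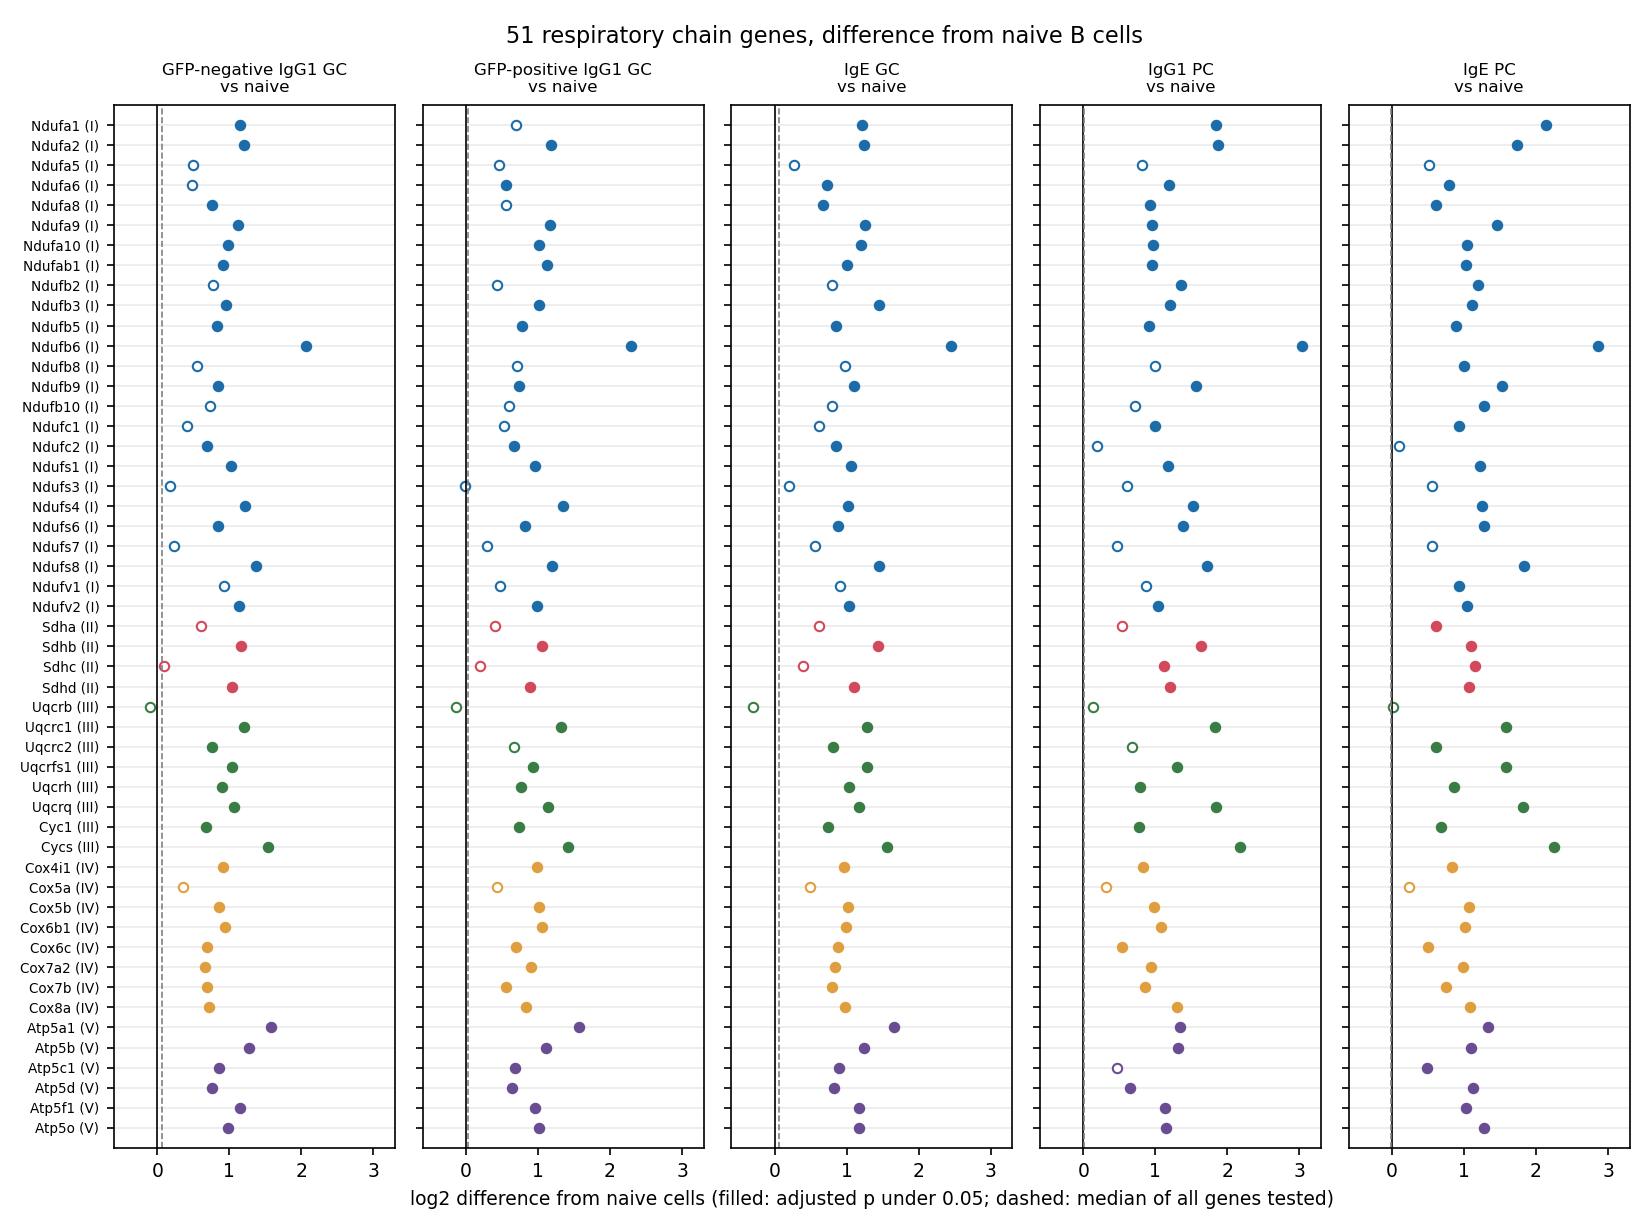
Difference of each of the 51 genes from naive cells (x axis, log2) in the 5 sorted populations, genes in rows with their complex in brackets. Filled points were called at an adjusted p under 0.05, and the dashed line is the median of all genes tested (-0.01 to 0.07). Most points lie near 1, and Ndufb6 lies farthest to the right in every panel.

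Complex II, succinate dehydrogenase, has 4 subunits and is the only complex without a mitochondrially coded one. Sdhb, the iron-sulfur subunit, was 8.33, 8.01 and 7.95 in naive cells, 9.17, 9.44 and 9.17 in GFP-negative IgG1 GC, 9.19, 9.39 and 8.88 in GFP-positive IgG1 GC and 9.57, 9.65 and 9.37 in IgE GC. In plasma cells it was 9.86 and 9.59 (IgG1) and 9.21, 9.15, 9.36 and 9.06 (IgE). No naive value reached any other, and Sdhb rose in all 5 populations, by 1.43 ± 0.17 in IgE GC (adjusted p = 8.71e-06), 1.10 ± 0.16 in IgE PC (3.38e-05) and 1.63 ± 0.19 in IgG1 PC (4.54e-06).

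The membrane anchors of complex II, which hold its heme and ubiquinone site, followed different courses. Sdhc was 8.003, 8.86 and 8.60 in naive cells, 8.78, 8.36 and 8.57 in GFP-negative IgG1 GC, 8.67, 9.15 and 8.23 in GFP-positive IgG1 GC and 8.87, 8.74 and 9.03 in IgE GC, against 9.60 and 9.61 in IgG1 PC and 9.45, 9.66, 9.59 and 9.85 in IgE PC. Its GC values overlapped the naive ones (difference 0.40 ± 0.23 in IgE GC, adjusted p = 0.221), and its PC values lay above all others (1.15 ± 0.22 in IgE PC, adjusted p = 4.96e-04). Sdhd rose in all 5, by 1.10 ± 0.26 in IgE GC and 1.08 ± 0.24 in IgE PC (adjusted p = 0.00473 and 0.00212), by 0.89 in GFP-positive IgG1 GC (adjusted p = 0.0194) and by 1.21 in IgG1 PC (adjusted p = 0.00429). Its call in GFP-positive IgG1 GC was lost without replicate 1 or 2 of that group or naive replicate 1 (highest adjusted p = 0.0979), and that in IgG1 PC without IgG1 PC replicate 2 (adjusted p = 0.123). Sdha, the catalytic flavoprotein, passed the test in IgE PC (0.62 ± 0.21, adjusted p = 0.0313) and not in IgE GC (0.62 ± 0.23, adjusted p = 0.0548), where the difference had the same size. The Sdha call in IgE PC was lost without IgE PC replicate 1 or 3 or naive replicate 1 or 3 (highest adjusted p = 0.14).

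In complex III and cytochrome c, 7 of 8 genes rose in IgE GC and in IgE PC, with medians of 1.10 and 1.22. Cycs codes for somatic cytochrome c, the mobile electron carrier that also triggers caspases when released. It was 8.14, 7.92 and 7.76 in naive cells, 9.25, 9.78 and 9.41 in GFP-negative IgG1 GC, 9.43, 9.72 and 8.95 in GFP-positive IgG1 GC and 9.11, 9.59 and 9.80 in IgE GC, and 9.84 and 10.37 in IgG1 PC and 10.19, 10.54, 10.22 and 9.83 in IgE PC. Every PC value lay above every GC value and every GC value above every naive value. Cycs rose by 1.56 ± 0.25 in IgE GC (adjusted p = 1.62e-04), 2.25 ± 0.23 in IgE PC (adjusted p = 6.87e-07) and 2.17 ± 0.27 in IgG1 PC (adjusted p = 1.15e-05). Of the other probe sets with this symbol, 1 moved alike (6.74 in naive cells, 8.04 to 8.21 in GC and 8.59 and 8.86 in PC) and 1 stayed between 4.78 and 4.96. Cycs has processed pseudogene copies, and array probes to a copy and to the gene cannot be told apart here.

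Uqcrc1, a core protein of complex III, rose by 1.29 ± 0.25 in IgE GC (adjusted p = 0.00102) and 1.58 ± 0.23 in IgE PC (adjusted p = 4.12e-05). Uqcrq, a small subunit, rose by 1.81 ± 0.17 in IgE PC (adjusted p = 3.17e-07). Cyc1, cytochrome c1, rose less, by 0.74 ± 0.24 in IgE GC (adjusted p = 0.031), 0.68 ± 0.23 in IgE PC (0.0271) and 0.77 ± 0.27 in IgG1 PC (0.0402). Each Cyc1 call was lost without 1 of 3 to 10 of the 18 arrays, naive replicate 3 among them in all 5 comparisons (highest adjusted p = 0.155 in IgE GC and 0.173 in IgE PC). Uqcrb, a small subunit, was the exception of this complex. It was 9.43, 10.28 and 8.65 in naive cells and 9.05, 8.94 and 9.49 in IgE GC (difference -0.29 ± 0.29, adjusted p = 0.468), its naive values spanned all others, and none of its 3 probe sets was higher in IgE GC than in naive cells by mean (6.61 against 7.59, 9.16 against 9.45 and 8.08 against 8.15).

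Complex IV, cytochrome c oxidase, is represented by nuclear subunits that surround its mitochondrially coded core, and 7 of 8 rose in each of the 5 populations. Cox6b1 was 11.01, 11.10 and 10.93 in naive cells and 12.004, 12.11 and 11.90 in IgE GC, and 12.27 and 11.93 in IgG1 PC and 11.89, 12.11, 12.14 and 11.94 in IgE PC. The spread within groups was small against the difference of 0.99 ± 0.14 in IgE GC and 1.01 ± 0.13 in IgE PC (adjusted p = 5.67e-05 and 1.07e-05). Cox4i1, the ubiquitous subunit 4 isoform, rose by 0.97 ± 0.13 in IgE GC and 0.84 ± 0.12 in IgE PC (adjusted p = 3.76e-05 and 3.92e-05). Cox5b rose by 1.02 ± 0.29 in IgE GC (adjusted p = 0.0149), with naive values of 9.05, 9.38 and 10.60 that reached those of IgE GC at 10.65, 10.60 and 10.83, and that call was lost without naive replicate 1 (0.71) or IgE GC replicate 3 (highest adjusted p = 0.08). Cox5a was called in no comparison with naive cells (0.50 ± 0.29 in IgE GC, adjusted p = 0.208).

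All 6 members of complex V rose in the 3 GC populations and in IgE PC, and 5 of them in IgG1 PC, where Atp5c1, the central gamma stalk, did not pass (0.46 ± 0.20, adjusted p = 0.0902). Atp5a1, the alpha subunit of the F1 head, was 9.03, 10.24 and 9.67 in naive cells, 11.22, 11.38 and 11.32 in IgE GC, 10.99 and 10.97 in IgG1 PC and 10.73, 10.97, 11.16 and 11.06 in IgE PC. Atp5b, the catalytic beta subunit, was 9.80, 9.68 and 9.87 in naive cells, 10.99, 11.01 and 11.07 in IgE GC, 11.39 and 10.81 in IgG1 PC and 10.76, 10.97, 11.16 and 10.61 in IgE PC. Neither gene's naive values overlapped with the others, and the differences in IgE GC were 1.66 ± 0.23 (Atp5a1, adjusted p = 3.76e-05) and 1.24 ± 0.18 (Atp5b, adjusted p = 6.74e-05).

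Over the 5 comparisons with naive cells, 33 members were higher in all and 5 in none (Ndufa5, Ndufs3, Ndufs7, Uqcrb and Cox5a). For 4 of the latter, a call was made on leaving out 1 naive array. Without naive replicate 1, Cox5a (0.90 in IgE GC) was called higher in all 5 and Ndufs7 (0.90 in IgE GC) in IgE GC, IgE PC and IgG1 PC. Ndufs7 was also called in IgG1 PC without IgG1 PC replicate 1 (limma, adjusted p = 0.0462). Without naive replicate 3, Ndufa5 (0.78 in IgE GC) was called higher in all 5, and Uqcrb was called lower in IgE GC, at the edge of the threshold (-0.70). Ndufs3 passed in IgE PC without GFP-positive IgG1 GC replicate 2 or 3 (0.56) and in IgG1 PC without GFP-positive IgG1 GC replicate 3 (0.61, adjusted p = 0.0338). As to the counts, GFP-positive IgG1 GC had 22 members higher without its replicate 2, against 36, and IgG1 PC had 26 without its replicate 2, against 39.

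The next comparison asks what changes between the germinal centre and the plasma cell stage within an isotype. Few members were called. In IgE PC against IgE GC, 4 of 51 rose (10.2% of all genes) and 1 fell (13.4%), with a median of 0.05 (all genes -0.03). In IgG1 PC against GFP-positive IgG1 GC, 6 rose (8.32%) and 0 fell (13.1%), with a median of 0.20 (all genes -0.01). The IgG1 median was 0.11 without GFP-positive IgG1 GC replicate 3, whose mean over the members was 9.17 against 9.48 and 9.67 in replicates 1 and 2. It was 0.33 without replicate 2 of that group and 0.31 without IgG1 PC replicate 1, and the IgE median ranged from 0.03 to 0.13 on leaving out 1 array. The shares that rose lie near the background of all genes, and the shares that fell lie below it. Among genes as bright as the members, 17.6% were higher and 26.1% lower in IgE PC, and 14.7% and 25.2% in IgG1 PC. Their medians were -0.20 and -0.21 in the same comparisons, so both member shares lie below those of the bright genes. The summed log2 signal of 6 plasma cell markers was 42.0, 42.3 and 45.8 in IgE GC replicates 1 to 3. In IgG1 PC replicates 1 and 2, 8 macrophage and dendritic markers summed to 35.8 and 39.9 and 6 T cell markers to 34.1 and 38.3. Sums of 5 neutrophil markers there were 22.9 and 23.0. The part of these markers in the differences between PC and GC was not tested.

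Ndufa1, an accessory subunit of the membrane arm, was higher in PC of both isotypes. It was 9.99, 10.17 and 9.83 in IgE GC and 11.08, 10.92, 10.83 and 10.83 in IgE PC, and 9.78, 10.20 and 8.46 in GFP-positive IgG1 GC and 10.88 and 10.35 in IgG1 PC. No values of GC and PC overlapped, and the 8.46 came from GFP-positive IgG1 GC replicate 3, just below the naive values of 8.53 to 8.94. Ndufa1 rose by 0.92 ± 0.29 (IgE, adjusted p = 0.028) and 1.14 ± 0.35 (IgG1, adjusted p = 0.0258), and by 0.63 in IgG1 without that replicate, where the call was lost.

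Sdhc rose by 0.76 ± 0.22 in IgE PC (adjusted p = 0.0177) and by 0.92 ± 0.26 in IgG1 PC (adjusted p = 0.0176), with the values given for complex II. Uqcrq was 9.52, 9.58 and 9.60 in IgE GC, 10.16, 10.44, 10.16 and 10.09 in IgE PC, 9.48, 9.90 and 9.22 in GFP-positive IgG1 GC and 9.98 and 10.51 in IgG1 PC. All its PC values lay above all its GC values, and it rose by 0.64 ± 0.17 (IgE, adjusted p = 0.0113) and 0.71 ± 0.21 (IgG1, adjusted p = 0.0202). Cycs rose by 0.69 ± 0.23 in IgE PC (adjusted p = 0.0375), and its difference in IgG1 PC was 0.75 ± 0.27 (adjusted p = 0.0646). With all probe sets of Cycs averaged, the IgE difference was 0.43 (adjusted p = 0.188).

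Other members passed in 1 isotype only, which does not show that the isotypes differ. Ndufb9, an accessory subunit of complex I, rose by 0.83 ± 0.21 in IgG1 PC (adjusted p = 0.00991), with 0.44 ± 0.18 in IgE PC (adjusted p = 0.0959). Ndufa6, also an accessory subunit, rose by 0.64 ± 0.21 in IgG1 PC (adjusted p = 0.0376). Sdhb rose by 0.57 ± 0.19 in IgG1 PC (adjusted p = 0.039), with -0.34 ± 0.16 in IgE PC (adjusted p = 0.153). Ndufc2, a membrane-arm accessory subunit, went the other way. It was 10.40, 10.76 and 10.82 in IgE GC and 9.45, 10.29, 9.81 and 10.03 in IgE PC, which overlapped the naive values of 10.02, 10.06 and 9.31, and it fell by 0.76 ± 0.21 (adjusted p = 0.0151), with -0.48 ± 0.26 in IgG1 PC (adjusted p = 0.216).

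**Figure D3:**
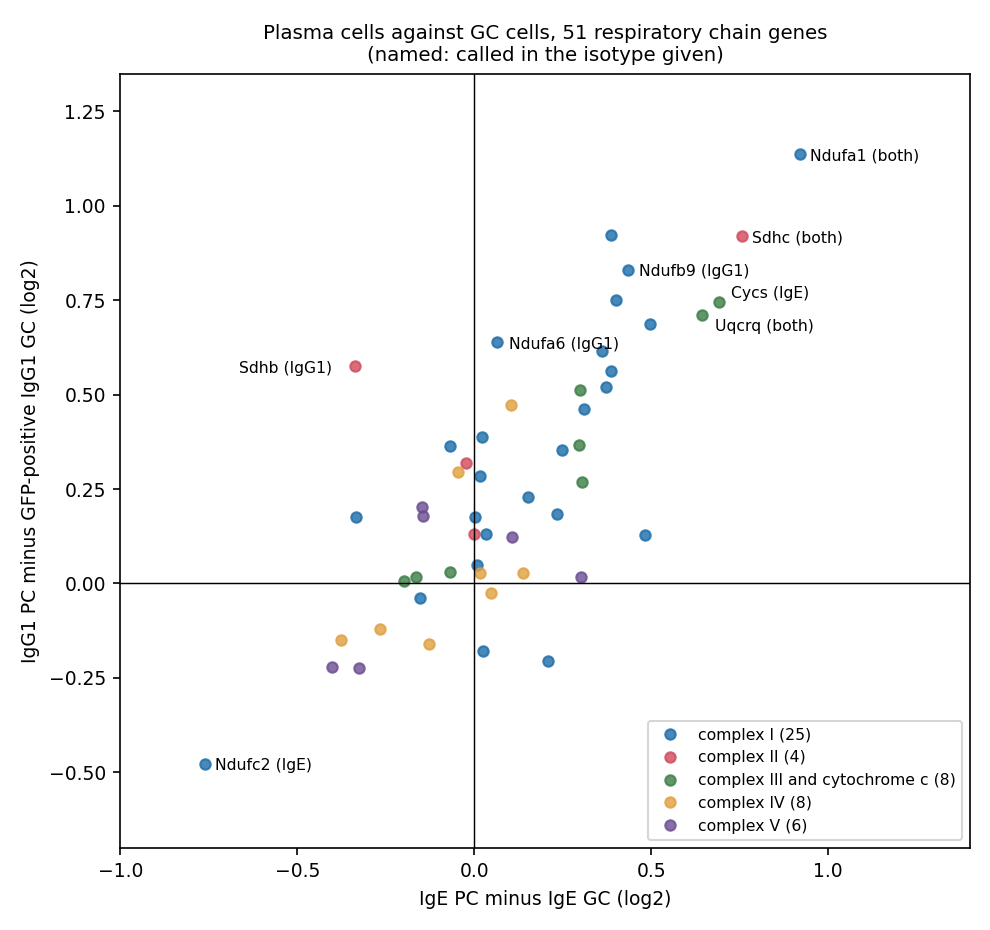
Difference between PC and GC cells for the 51 genes, IgE on the x axis and IgG1 (GFP-positive GC) on the y axis, both log2, coloured by complex. Named genes were called in the isotype given. Ndufa1, Sdhc and Uqcrq, called in both, lie at the upper right, Sdhb lies above 0 for IgG1 and below 0 for IgE, and Ndufc2 is at the lower left.

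Across all 15 GC and PC arrays, every PC value lay above every GC value for 5 members (Ndufa1, Ndufa2, Sdhc, Uqcrq and Cycs, against 8.1% of all genes) and below it for Ndufc2 (10.9% of all genes). By complex, the median difference in IgE and IgG1 was 0.21 and 0.35 for complex I, -0.01 and 0.45 for complex II, 0.30 and 0.32 for complex III, -0.01 and 0.00 for complex IV and -0.15 and 0.07 for complex V. Without GFP-positive IgG1 GC replicate 3 the IgG1 medians were 0.21, 0.31, 0.25, -0.06 and -0.09 for complexes I to V. The calls depended on single arrays. In IgE, Ndufa1 was lost without IgE GC replicate 1 or 3 or IgE PC replicate 1 or 2 (highest adjusted p = 0.103), Sdhc without IgE GC replicate 1 or 2 or IgE PC replicate 4 (0.0792), Ndufc2 without IgE GC replicate 2 or 3 or IgE PC replicate 1 (0.0709) and Cycs without IgE GC replicate 1 or 2 or IgE PC replicate 1, 2 or 3 (0.203), while Uqcrq kept its call without any 1 of the 18 arrays. In IgG1, each of the 6 calls was lost without at least 1 IgG1 PC array (highest adjusted p = 0.265, for Uqcrq). Of the GC arrays, leaving out GFP-positive IgG1 GC replicate 3 lost Ndufa1, Ndufa6, Sdhb, Sdhc and Uqcrq, leaving out its replicate 1 lost Ndufa6, Sdhb and Uqcrq, and Sdhb was also lost without IgE GC replicate 1 (highest adjusted p over these GC arrays = 0.128, for Sdhb). The IgE count of 5 was 2 without IgE GC replicate 1 or 2 and 3 without IgE GC replicate 3, IgE PC replicate 1 or IgE PC replicate 2. The IgG1 count of 6 was 3 and 1 without GFP-positive IgG1 GC replicate 1 and 3, and 2 and 1 without IgG1 PC replicate 1 and 2, and it was 9 without GFP-positive IgG1 GC replicate 2.

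Comparisons between isotypes within a stage called no member. In IgE GC against GFP-positive IgG1 GC, 0 of 51 passed with limma and 0% of all genes did. The median was 0.15 (all genes 0.03), and 43 of 51 differences were above 0 against 55.4% of all genes and 68.1% of genes as bright as the members. This shift rested on GFP-positive IgG1 GC replicate 3, without which the median was 0.004 and 26 of 51 lay above 0 (0.25 and 44 without replicate 2). Only Sdhb had an unadjusted p under 0.05 (0.38 ± 0.17, adjusted p = 1 in limma), with 0.24 without replicate 3. In IgE PC against IgG1 PC, 0 of 51 passed with limma (0.959% of all genes), the median was -0.04 (all genes 0.02; -0.13 to 0.05 on leaving out 1 array), and 2 members had an unadjusted p under 0.05. These were Sdhb, lower in IgE PC (-0.53, 95% interval -0.91 to -0.15, adjusted p = 0.195), and Atp5d, the delta subunit of the ATP synthase (0.48). For Cycs the interval of IgE PC minus IgG1 PC was -0.47 to 0.63, and for Atp5a1 -0.51 to 0.50, so differences of that size were not detectable with 4 and 2 arrays.

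The interaction, which compares the step from GC to PC between the isotypes, also called 0 of 51 members with limma (0.0909% of all genes), with a median of -0.16 (all genes 0.00) and 9 of 51 above 0. The median was -0.02, with 23 above 0, without GFP-positive IgG1 GC replicate 3. It was -0.055 without IgG1 PC replicate 2 and -0.25 without GFP-positive IgG1 GC replicate 2. Sdhb was the only member with an unadjusted p under 0.05. Its 4 IgE PC values (9.06 to 9.36) lay below the 3 IgE GC values (9.37 to 9.65), and its IgG1 PC values (9.59 and 9.86) lay above the GFP-positive IgG1 GC values (8.88 to 9.39). The interaction was -0.91 ± 0.25 and did not pass over all genes (limma, adjusted p = 0.345), with -1.05 to -0.77 on leaving out 1 array. Against GFP-negative IgG1 GC cells, GFP-positive IgG1 GC cells differed in 0 of 51 members (0% of all genes, limma), with a median of -0.03 (all genes -0.02; -0.12 to 0.07 on leaving out 1 array) and 0 members at an unadjusted p under 0.05.

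The second experiment asks how dark zone cells, which divide and mutate their antibody genes, differ from light zone cells, which are selected on antigen and T cell help. All 51 differences lay above 0, towards DZ cells, against 50.6% of all genes. Of the members, 11 rose at the adjusted threshold (3.92% of all genes) and 0 fell (3%), and 37 had an unadjusted p under 0.05 against 21.7% of all genes. The median was 0.37 (all genes 0.00), with a range of 0.08 (Uqcrh) to 0.77 (Sdhb). Among 1531 genes of the members' brightness the median was 0.08, 62.8% lay above 0, and 8.62% were called higher.

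Called members came from each complex. In complex II, Sdhb was 9.40, 9.30 and 9.84 in GFP-positive DZ, 8.78, 9.14 and 8.47 in GFP-positive LZ, 9.53, 9.16 and 9.92 in GFP-negative DZ and 8.68, 8.997 and 8.48 in GFP-negative LZ. Every DZ value lay above every LZ value, and Sdhb rose by 0.77 ± 0.17 (adjusted p = 0.0163). Sdhd rose by 0.45 ± 0.11 (adjusted p = 0.0335), with Sdhc at 0.44 ± 0.14 (adjusted p = 0.0827) and Sdha at 0.23 ± 0.13 (adjusted p = 0.311). The Sdhd call was lost without any 1 of 8 of the 12 arrays (highest adjusted p = 0.0782).

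In complex I, Ndufa8, an accessory subunit, was 8.74, 8.52 and 8.34 in GFP-positive DZ, 8.06, 8.06 and 7.80 in GFP-positive LZ, 8.58, 8.27 and 8.45 in GFP-negative DZ and 7.68, 7.83 and 7.56 in GFP-negative LZ. Its zones did not overlap (0.65 ± 0.11, adjusted p = 0.00309). Ndufc2 was 10.71, 10.60 and 10.61 in GFP-positive DZ, 10.24, 10.14 and 10.22 in GFP-positive LZ, 10.79, 10.38 and 10.57 in GFP-negative DZ and 9.91, 9.97 and 9.80 in GFP-negative LZ. It rose by 0.56 ± 0.09 (adjusted p = 0.00353), again without overlap. Ndufb9 and Ndufb6 rose by 0.66 ± 0.14 and 0.53 ± 0.13 (adjusted p = 0.0163 and 0.026), with some overlap between zones, and the Ndufb6 call was lost without any 1 of 7 arrays (highest adjusted p = 0.0676).

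In complex III, Uqcrfs1, the Rieske iron-sulfur protein, rose by 0.59 ± 0.13 and Uqcrc2, a core protein, by 0.43 ± 0.10 (adjusted p = 0.0189 and 0.0213). Cyc1 and Cycs stood at 0.37 ± 0.11 and 0.35 ± 0.13 (adjusted p = 0.0655 and 0.133). In complex IV, Cox5b rose by 0.35 ± 0.10 at the edge of the threshold (adjusted p = 0.0497, lost without any 1 of 10 of the 12 arrays, up to 0.119). In complex V, Atp5f1, which builds the peripheral stalk, was 10.09, 10.22 and 10.07 in GFP-positive DZ, 9.77, 9.65 and 9.62 in GFP-positive LZ, 10.08, 10.21 and 10.31 in GFP-negative DZ and 9.68, 9.38 and 9.13 in GFP-negative LZ. Its zones did not overlap (0.62 ± 0.11, adjusted p = 0.00396). The other Atp5f1 probe set averaged 9.24 in GFP-positive DZ, 8.76 in GFP-positive LZ, 9.03 in GFP-negative DZ and 8.56 in GFP-negative LZ. Whether either probe set also matches a pseudogene copy was not tested. Atp5b rose by 0.43 ± 0.11 (adjusted p = 0.0365), a call lost without any 1 of 8 arrays (highest adjusted p = 0.0851). Uqcrc2 kept no call when GFP-positive LZ replicate 2 or GFP-negative DZ replicate 3 was left out (highest adjusted p = 0.0522).

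**Figure D4:**
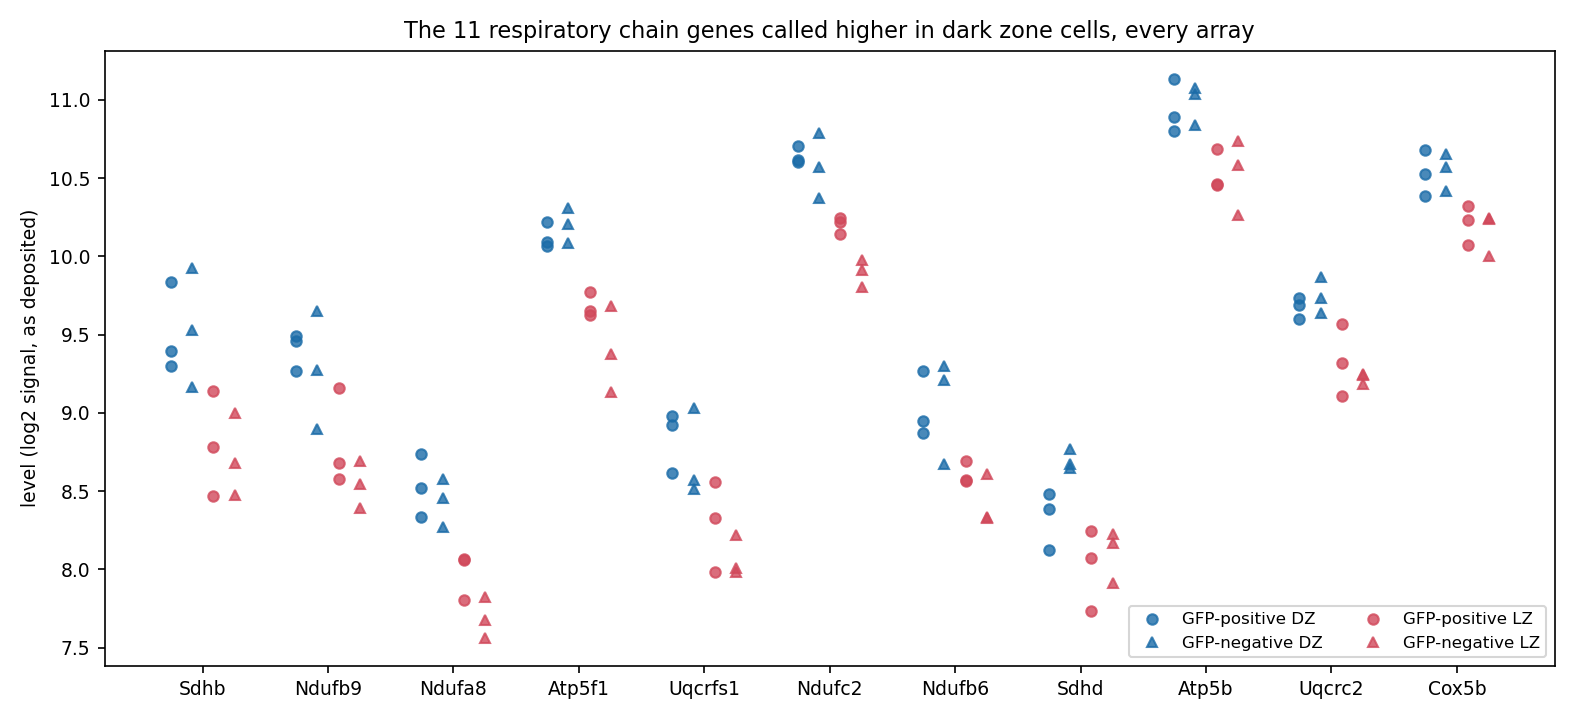
Level (y axis, log2 signal as deposited) of the 11 genes called higher in DZ cells, on each of the 12 arrays of experiment 2. Blue marks DZ and red LZ, circles GFP-positive and triangles GFP-negative cells. For 7 of the genes the lowest blue point lies above the highest red point.

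All 6 DZ values lay above all 6 LZ values for 7 members (Ndufa8, Ndufc2, Sdhb, Uqcrc2, Cox5b, Atp5b and Atp5f1, against 2.49% of all genes) and below them for 0 (2.31%). Within GFP-positive cells the median difference was 0.30 with 49 of 51 above 0 (all genes -0.01), and within GFP-negative cells it was 0.42 with 51 of 51 above 0 (all genes 0.02). The interaction of zone and GFP called 0 of 51 with limma (0% of all genes), with 1 at an unadjusted p under 0.05 (Ndufb10, -0.94), and GFP-positive against GFP-negative zone cells called 0 with limma (0%), with 2 unadjusted (Ndufb5 at -0.36 and Ndufs8 at 0.26). The count of 11 was 6 without GFP-positive LZ replicate 2 or GFP-negative DZ replicate 3, 7 without GFP-positive LZ replicate 3 or GFP-negative DZ replicate 1, and up to 16 without GFP-negative DZ replicate 2. Of the markers of other cells, the endothelial gene Pecam1 was lower in DZ (-0.55, adjusted p = 0.0386, limma). Col1a1 (-0.10) and Col3a1 (-0.07) of the same list were not called. The 4 stromal and endothelial markers summed to 22.9 to 24.5 on DZ and 24.3 to 25.6 on LZ arrays, with 2 to 4 of 4 above the array median in both. The naive B cell markers Fcer2a (-0.96) and Ccr6 (-0.97) were lower too. S1pr1, the remaining gene of that list, went the other way and was not called (0.35, adjusted p = 0.135, limma). The list of 3 summed to 22.7 to 23.7 against 24.2 to 26.3. T cell markers (6 genes, 5 of them tested and 0 called by limma, 0 at an unadjusted p under 0.05) summed to 31.5 to 37.9 on DZ and 35.3 to 38.8 on LZ arrays. The part of these markers in the zone difference was not tested.

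Other mitochondrial genes, in 9 lists from textbook knowledge, are given for context. In IgE GC against naive cells, where 19.3% of all genes and 43.6% of those as bright as the members were higher, 20 of 24 tested further structural subunits of the chain rose (median 0.90), led by Ndufs5 (1.83), Atp5g3 (1.66) and Uqcr11 (1.62), and 0 fell. Protein import had 13 of 24 genes higher and 0 lower (median 0.83; Timm8a1 2.53, Pam16 1.86, Tomm5 1.55), and the mitochondrial ribosome 37 of 77 and 0 (median 0.80; Mrps18c 2.64, Mrpl18 2.08, Mrpl13 1.94). Carriers and porins had 8 of 14 higher and 0 lower (median 1.03), with Vdac3 and Vdac1, the outer membrane porins, at 2.17 and 1.75 and Atpif1, the inhibitor of the ATP synthase, at 1.60. The TCA cycle and pyruvate dehydrogenase list had 11 of 20 higher and 0 lower (median 0.70), among them Pdk3 (2.32), a kinase that inhibits pyruvate dehydrogenase, Idh3a (1.49) and Cs, citrate synthase (1.19).

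Assembly factors, which build the complexes without staying in them, had 6 of 43 higher and 0 lower in IgE GC, a share below the 19.3% of all genes (median 0.24; Ndufaf2 1.58, Cox15 1.18, Tmem126b 1.16). Regulators of mitochondrial biogenesis had 3 of 17 higher and 0 lower (median 0.10), which is near the share of all genes. The 3 were Tfb1m (1.30), Tfam, the packaging and transcription factor of mitochondrial DNA (1.29), and Gabpa, the DNA-binding subunit of GABP (0.85). Of 6 tissue-restricted isoforms, 0 rose and Cox6a2 fell (-1.16). Of 13 mitochondrially coded subunits, ND3 and COX2 could be tested and 0 were called by limma (0 at an unadjusted p under 0.05, and 1 called with a trend and robust prior), with a median of -0.15. Their naive levels of 12.99 and 12.53 lie near the top of the scale, and whether this limits the measured differences was not tested.

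In IgE PC against naive cells, 23% of all genes and 42.8% of those as bright as the members were higher. There, 21 of 24 further structural subunits rose and 0 fell (median 0.99), as did 40 of 77 mitochondrial ribosome genes and 0 (median 0.80). Import had 10 of 24 higher, carriers 6 of 14 and the TCA list 9 of 20, with 0 lower in each (medians 0.59, 0.57 and 0.57). The shares of import, carriers and the TCA list lie near that of the bright genes. In the biogenesis list Tfb1m (1.97) and Gabpb1 (1.02) rose and Myc fell (-1.10). In IgE PC against IgE GC, where 10.2% of all genes were higher and 13.4% lower, further structural subunits had 3 of 24 higher and 0 lower (median 0.12; Atp5g1 0.82, Ndufa4 0.80, Ndufa3 0.72). Carriers had 0 higher and 2 lower (median -0.47; Vdac3 -0.95, Slc25a5 -0.52), the TCA list 0 and 2 (Idh3a -0.94, Fh1 -0.90), and the assembly factor Sdhaf2, which attaches FAD to Sdha, fell (-1.52). In IgG1 PC against GFP-positive IgG1 GC, 6 of 17 biogenesis regulators fell (13.1% of all genes) and 0 rose (median -0.41), led by Tfam (-1.54), Polg2 (-1.25) and Yy1 (-0.89). Sdhaf2 fell there too (-1.10).

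In DZ against LZ cells, where 3.92% of all genes and 8.62% of those as bright as the members were higher, 4 of 24 further structural subunits rose and 0 fell, with 24 of 24 differences above 0 (median 0.26; Uqcr11 0.69, Atp5md 0.60). The mitochondrial ribosome had 7 of 77 higher and 0 lower, with 68 above 0 (median 0.24; Mrps18c 0.76, Mrpl34 0.73), a share close to that of the bright genes. The TCA list had 3 of 18 higher (Suclg1 0.57, Sucla2 0.53, Dld 0.46), import 3 (Timm50 0.79) and carriers 2 (Atpif1 0.50, Vdac3 0.40), with 0 lower in each. Of 42 assembly factors 0 were called by limma (5 at an unadjusted p under 0.05, and at most 1 called under the alternatives that keep all arrays), and of the biogenesis regulators Myc alone passed (-0.40, lower in DZ).

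**Figure D5:**
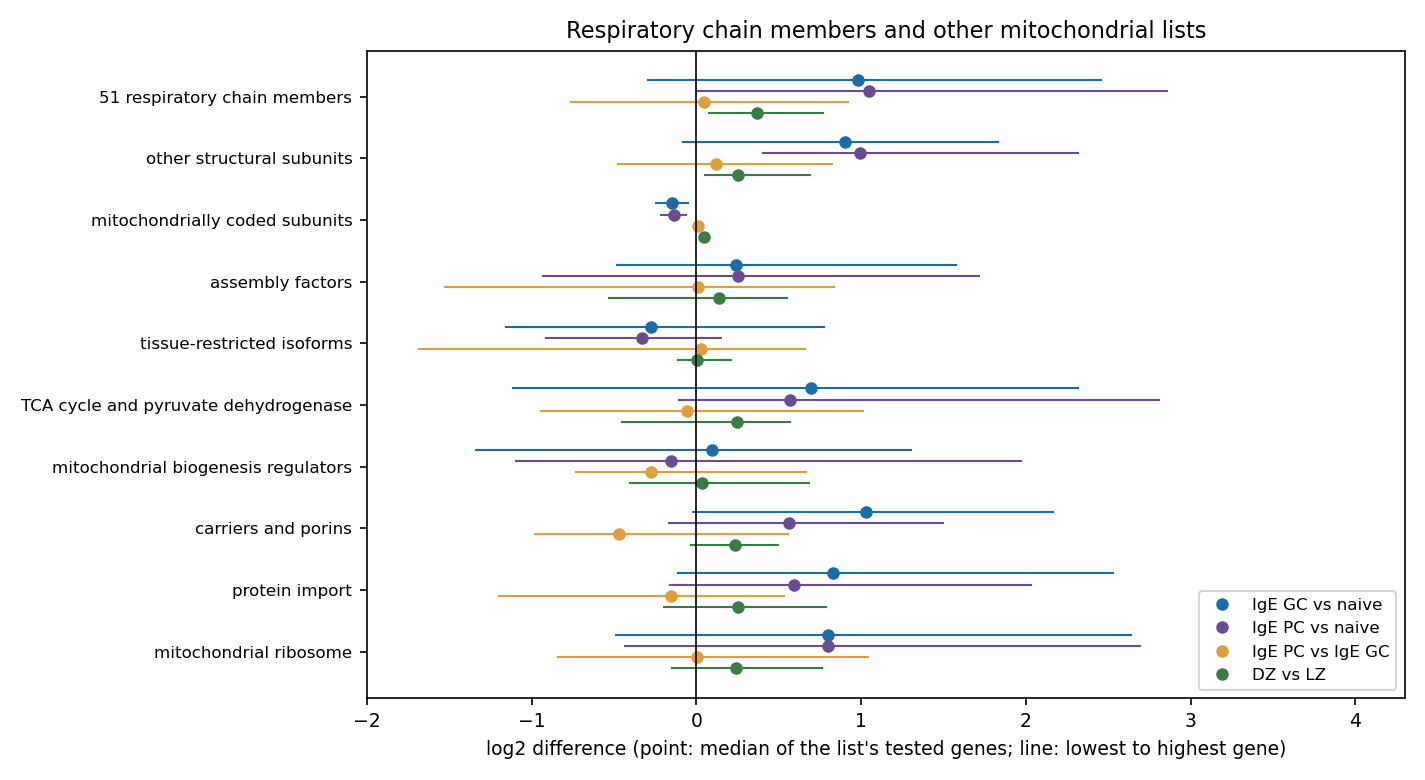
Median (point) and lowest to highest gene (line) of the log2 difference (x axis) for the 51 members and 9 further mitochondrial lists (rows), in 4 comparisons given by colour. Medians of the members and of further structural subunits are 0.98 and 0.90 in IgE GC against naive cells, and 0.37 and 0.26 in DZ against LZ cells.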

How the data were processed

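The authors deposited log2 signals of Affymetrix Mouse Gene ST arrays, made by robust multi-array averaging (RMA). The submitters' processing notes name R 2.15.2. RMA brings the arrays' probe signals to a common scale, which hides changes in total RNA per cell. The deposited values still differed in spread. In the first experiment, array interquartile ranges ran from 2.48 (naive replicate 1) to 3.16 (GFP-negative IgG1 GC replicate 1). Levels were not compared across the 2 experiments, because joint normalization is not stated. Single-primer isothermal amplification preceded labelling, per the labels. No batch is named in the sources used here.

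Of the probe sets, 21640 had 1 gene symbol in the platform annotation, 1321 several and 11799 none, and only the first kind was used. Where a gene had several, the one brightest on average over 30 arrays was taken. One limma 3.58.1 model (lmFit, eBayes; R 4.3.3) per experiment used all its arrays, with Benjamini-Hochberg adjustment over all genes tested, for 14 comparisons of which 2 were interactions. The fit was tested on simulated data. P-values measure the spread between pools of mice, which the main fit takes as independent. The replicate numbers of GFP-negative and GFP-positive IgG1 GC pair the samples by their correlated deviations (0.11 to 0.15), and the labels do not say what a number shares.

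Named members were the 2 largest called per complex and direction, all of complex II, Cycs and Cyc1, and members called against the majority. Beyond this rule, the remaining members called between PC and GC and between zones, and members called in no comparison with naive cells or at an unadjusted p alone, were named after their values were seen. Members and lists were chosen with earlier results of these data known. RefSeq (GRCm38.p6) gave names and promoters. Figures were drawn with matplotlib 3.10.9 in python 3.11.15. Alternatives were other scalings, filters, probe set rules, variance priors, a replicate block, fits on only the groups compared, leaving out each array in turn, and leaving out the 2 arrays that stood apart from their groups.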

Additional observations from a re-analysis of the deposited data

How the results depend on the processing

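No count or member's call reversed under any alternative, and comparisons that called 0 members still called 0 under all of them. Fitting only the groups compared left 13 members higher than naive in GFP-positive IgG1 GC, 15 in IgG1 PC, and 1 in IgG1 PC against GFP-positive IgG1 GC (36, 39 and 6 with all groups). With that fit, 86 member results lost a call and 2 gained one, so the losses were not confined to these comparisons. That alternative has fewer arrays to estimate the spread, and in the comparisons with naive cells the naive arrays weigh more in it. Naive arrays correlated with their group at 0.936 to 0.949, against 0.962 to 0.989 in the other groups of the first experiment. The main fit uses the same spread for all groups and does not account for this. Its part in the counts was not tested. Further quantile normalization left 20 and 22 members higher than naive in GFP-positive and GFP-negative IgG1 GC, and the cause was not tested. It also moved the share of calls that were higher in DZ against LZ from 56.7% to 45.4%, with 8 members called. Subtracting each array's median moved the median of all genes in IgE GC against naive from 0.06 to 0.18, with 44 members called, and 13 in DZ against LZ, where 67.6% of calls were then higher. Filters, probe set rules and variance priors kept every count of members within 1.5 times.

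Leaving out 1 array at a time gave 34 to 41 members called in IgE GC against naive, 22 to 39 in GFP-positive IgG1 GC, 29 to 42 in GFP-negative IgG1 GC, 38 to 46 in IgE PC and 26 to 41 in IgG1 PC. It gave 2 to 6 in IgE PC against IgE GC, 1 to 9 in IgG1 PC against GFP-positive IgG1 GC and 6 to 16 in DZ against LZ. Without both naive replicate 1 and GFP-positive IgG1 GC replicate 3, every count of members stayed within 1.5 times (7 called in IgE PC against IgE GC and 4 in IgG1 PC against GFP-positive IgG1 GC), while 21 of 561 single results lost a call and 26 gained one. Without 1 of the 2 IgG1 PC arrays, the other was assumed to vary like the other groups.

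With the replicate number as a block, 39, 35, 37, 42 and 39 members were higher than naive (IgE GC, GFP-positive and GFP-negative IgG1 GC, IgE PC, IgG1 PC), 4 were called in each PC against GC comparison, 11 in DZ against LZ and 0 in GFP-positive against GFP-negative IgG1 GC. Of 714 results (51 members in 14 comparisons), 692 stayed on their side of the threshold with the block, 15 lost a call and 7 gained one. Only GFP-negative and GFP-positive IgG1 GC met the pairing check. GFP-negative IgG1 GC and IgE GC came close, with correlated deviations of 0.095 to 0.140 for the same number. In the second experiment these were 0.002 to 0.199, all above 0, against means of -0.058 to -0.030 for different numbers. The values there lean towards pairing without meeting the check, so pairing is neither shown nor excluded. A call lost with the block outside the pair that met the check is therefore not read as a weaker effect.

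Groups of 2 to 4 arrays limit the precision, and all comparisons with naive cells rest on the same 3 naive pools.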
